A study of Mus musculus with 182 samples.

Results

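The proteasome genes were read from 182 single germinal centre B cells as every row of the expression table whose symbol starts with Psma, Psmb, Psmc, Psmd, Psme, Psmf or Psmg, together with Pomp and Shfm1. The rule found 52 of the 17034 gene symbols in the table. By their known roles they comprised 8 alpha subunits of the core, 4 structural and 3 catalytic beta subunits, 3 immunoproteasome subunits and the thymoproteasome subunit gene Psmb11. The others were 6 ATPases and 12 non-ATPase subunits of the regulatory cap, 6 genes of alternative caps and of an inhibitor, and 8 assembly chaperones. Psmc3ip matched the rule by its name only, since it encodes a recombination factor and no subunit.

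The proteasome is a barrel of stacked alpha and beta rings that cuts unfolded proteins into peptides inside its chamber, and the regulatory cap recognises ubiquitin-tagged proteins, unfolds them with its ATPase ring and feeds them in. In lymphocytes and in cells exposed to interferon, the catalytic subunits Psmb8, Psmb9 and Psmb10 replace Psmb5, Psmb6 and Psmb7, and the resulting immunoproteasome yields peptides suited to MHC class I. Germinal centre B cells divide fast and test new antibody variants, and in dividing cells the proteasome removes cyclins tagged by the anaphase-promoting complex.

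The cells came from the spleens of C57BL/6 mice with no transgene named, injected into the peritoneum with 100 μg of NP(23)-KLH (the small NP group on a large protein, at a ratio of 23) in 50% (v/v) alum with 1 μg of LPS. Day 13 spleens were freed of CD3+, CD4+, CD8+, CD11c+ and IgD+ cells with magnetic beads. By the labels the sort took B220+ Fas hi GL7 hi NP+ cells, whereas in the series' description NP is a stain and the gate is on B220, Fas and GL7. Every cell was captured on a microfluidic chip, amplified to full-length cDNA and made into its own library, and all 182 cells form 1 group. No label ties a cell to an animal, so the cells count as 1 biological sample, no test between conditions was possible and no p-value is given. Intervals on shares of cells are exact Clopper-Pearson 95% intervals and cover counting error only.

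The deposited columns fell into 2 sets by the values they shared, cells 1 to 96 (set 1, 96 cells) and cells 97 to 182 (set 2, 86 cells). Within a set at least 59.6% of the non-zero values of any pair of cells were equal, and between sets none were. These repeated values form a floor for each gene in each set, and the number of genes above their floor, used below as the measure of depth, had a median of 2666 (range 1904 to 4495) in set 1 and 2188.5 (980 to 5149) in set 2. Nothing in the labels says whether the sets are capture runs or animals, so each relation below has a value for either set. A gene was counted as detected at a value of 1 or more. The number of genes so detected per cell had a median of 1904 (range 1873 to 1946) in set 1. In set 2 it was 1690 (995 to 1741). In set 1 this number was thus nearly the same in every cell, unlike the number above floor. Detection is therefore a cut on the normalized signal, and a value under 1 does not show that a transcript was absent. Of 9 germinal centre B cell markers, 8 were detected in at least 50% of cells, among them Cd79b in 180 cells and Ms4a1 in 176. Of 6 T cell markers in the table, Lck was detected in 99 cells and Cd2 in 65, while Cd3d was detected in 0 of 182. Of 5 plasma cell markers, Igj was detected in 101 cells, Xbp1 in 46, and Prdm1 and Sdc1 in 2 each. At least 2 T cell markers were detected together in 41 cells, at least 2 plasma cell markers in 37 and at least 2 myeloid markers in 7. The part of such cells in the results was not tested.

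Promoter sequences are shown for the genes around which the results below are arranged: 2 immunoproteasome genes that lie beside genes of peptide transport, the standard catalytic gene Psmb5, and the assembly factor gene Pomp. They are the 250 bases before the annotated start, 5′ to 3′ in the direction of the gene, from RefSeq on GRCm38.p6, the same assembly as mm10. Psmb9 is read from the minus strand at chr17:34182030-34187330 and starts 225 bases from the start of Tap1, a peptide transporter gene read the other way, so the whole stretch between both starts is given. Psmb8 is on the plus strand at chr17:34198195-34201454. Capitals mark motif matches: a GAS element (TTCNNNGAA, an element of interferon gamma responses) in Psmb8, an inverted CCAAT box in the Psmb9 and Tap1 interval, an antioxidant response core (TGACNNNGC) in Psmb5, and 2 ETS sites (CCGGAAG or its reverse complement) in Pomp.
Psmb8 (chr17:34197945-34198194, plus strand): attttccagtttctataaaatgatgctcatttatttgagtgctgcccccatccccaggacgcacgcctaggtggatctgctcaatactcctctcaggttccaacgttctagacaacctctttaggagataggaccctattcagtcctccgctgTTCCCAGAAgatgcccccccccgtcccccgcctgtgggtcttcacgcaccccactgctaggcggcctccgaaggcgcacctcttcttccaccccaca
Psmb9 to Tap1 (chr17:34187331-34187555, minus strand): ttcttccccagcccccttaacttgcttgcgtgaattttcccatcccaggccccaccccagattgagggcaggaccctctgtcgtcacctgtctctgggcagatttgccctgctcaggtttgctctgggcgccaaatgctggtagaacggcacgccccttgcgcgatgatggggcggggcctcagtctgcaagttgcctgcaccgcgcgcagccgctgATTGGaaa
Psmb5 (chr14:54617996-54618245, minus strand): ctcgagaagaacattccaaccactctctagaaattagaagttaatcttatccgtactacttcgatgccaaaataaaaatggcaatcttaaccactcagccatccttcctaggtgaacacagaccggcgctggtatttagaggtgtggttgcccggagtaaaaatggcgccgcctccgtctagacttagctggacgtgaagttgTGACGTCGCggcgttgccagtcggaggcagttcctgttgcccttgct
Pomp (chr5:147860378-147860627, plus strand): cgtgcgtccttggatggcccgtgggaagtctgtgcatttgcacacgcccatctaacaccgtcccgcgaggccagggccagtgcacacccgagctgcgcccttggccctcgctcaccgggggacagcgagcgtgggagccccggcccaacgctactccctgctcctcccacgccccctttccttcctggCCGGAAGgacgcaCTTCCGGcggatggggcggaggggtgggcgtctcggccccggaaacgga

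The GAS match of Psmb8 began 97 bases before the start and the Psmb5 match 47 bases before it, and the Pomp matches began 62 and 49 bases before it. Of the 52 members, 44 had a promoter window. Both strands were searched for 5 motifs. The ETS site was found for 14 of the 44 members (31.8%), against 12.6% of the 12482 genes of the table with a window and 20.4% of the 4147 of these detected in at least 10% of cells. CCAAT was found for 15 members (34.1%, against 39.7% of table genes), TGACNNNGC for 5 (11.4%, against 13.3%), the core of the interferon-stimulated response element (GAAA, any 2 bases, GAAA) for 3 (6.82%, against 3.24%) and TTCNNNGAA for 2 (4.55%, against 7.56%). A match describes the letters in this window and does not show that a factor binds there.

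Proteasome genes were detected in more cells than most genes of the table. Their median share of cells was 34.6%, against 3.85% over all genes and 21.4% over the 5409 genes detected in at least 10% of cells. Detection in at least 50% of cells was reached by 10 of 52 members (19.2%), against 3.89% of all genes, and detection in at least 10% by 47 of 52, against 31.8%. The 5 members under 10% were the germ cell alpha subunit gene Psma8, Psmb11, the chaperone gene Psmg1, the inhibitor gene Psmf1 and Psmc3ip. With a threshold of 5 in place of 1, only Psmb8 (67.6% of cells), Psmc4 (61.0%) and Psma7 (56.6%) stayed at or above 50%. The count also moved with the set, from 16 members in set 1 alone to 5 in set 2 alone. Over members, 38 of 52 had a higher share in set 1 than in set 2 (73.1%), which is close to the 73.6% seen over all genes detected in at least 10% of cells.

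**Figure D1:**
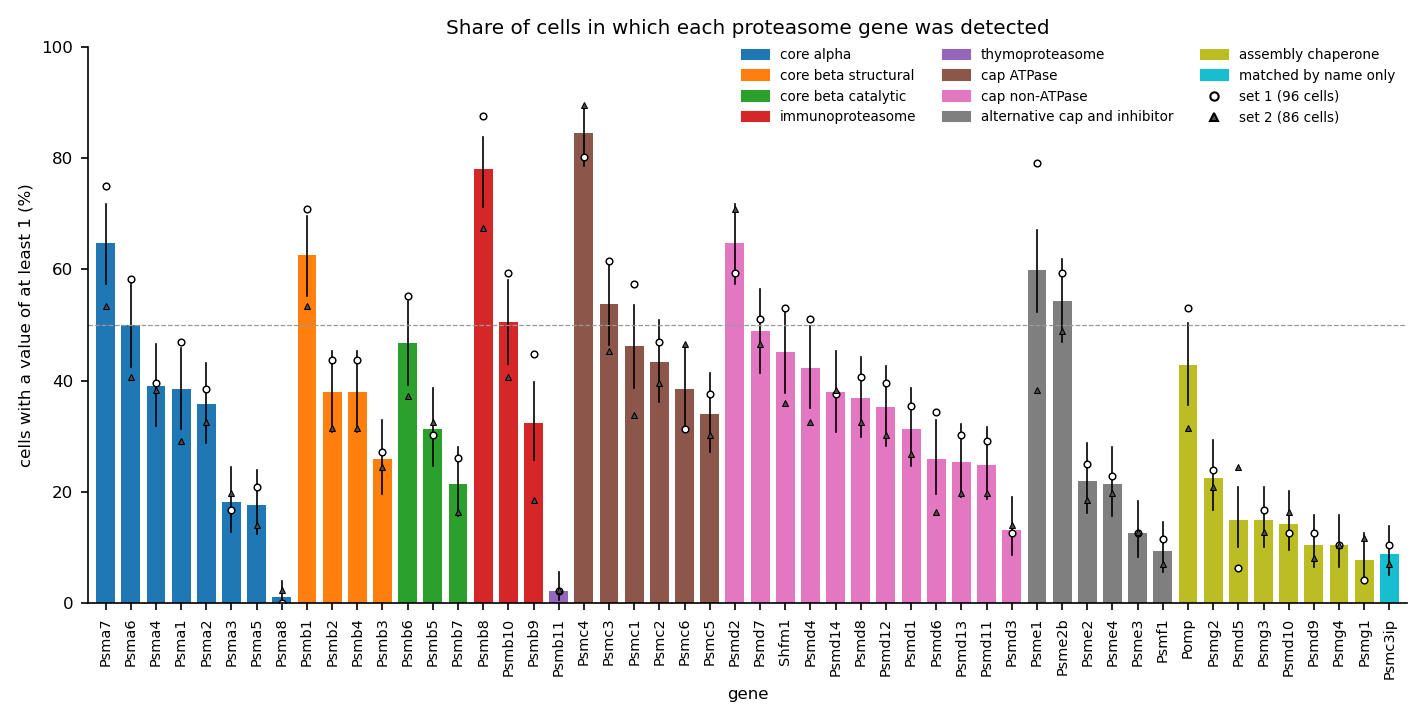
Share of the 182 cells in which each proteasome gene had a value of at least 1 (bars, with exact 95% intervals as lines), grouped by role, with set 1 as circles and set 2 as triangles. Psmc4 and Psmb8 stand highest at 84.6% and 78.0%, Psma8 and Psmb11 lowest, and set 2 lies above set 1 for Psmc4 and Psmd2.

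Among the alpha subunits, which form the outer rings and the gate of the barrel, the median share was 37.1%. Psma7 was detected in 118 cells (64.8%, interval 57.4 to 71.8%), with values from 0 through a median of 7.90 to 5850. Psma6 followed with 91 cells (50.0%), and Psma5 with 32 was the least often detected of the 7 alpha genes used outside germ cells. Psma8 replaces Psma7 in germ cells, and it was detected in 2 cells (1.10%) with a highest value of 2.00. Of the structural beta subunits, Psmb1 was detected in 114 cells (62.6%), Psmb2 and Psmb4 in 69 each (37.9%), and Psmb3 in 47 (25.8%). Psmb11, known from the cortical epithelium of the thymus, was detected in 4 cells (2.2%).

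Of the 3 immunoproteasome genes, Psmb8 and Psmb10 were detected in more cells than the standard genes they replace, and Psmb9 in fewer. Psmb8 had values from 0 through a median of 73.2 to 35302 and was detected in 142 cells (78.0%, interval 71.3 to 83.8%), against 57 cells (31.3%, 24.7 to 38.6%) for Psmb5, whose values ran from 0 through 0.011 to 1075. The intervals of Psmb8 and Psmb5 lay far apart in the cells pooled, and the share was higher for Psmb8 in set 1 (87.5% against 30.2%) and in set 2 (67.4% against 32.6%). Psmb10 was detected in 92 cells (50.5%, 43.1 to 58.0%) and its counterpart Psmb7 in 39 (21.4%, 15.7 to 28.1%), again with Psmb10 higher in both sets (59.4% against 26.0%, and 40.7% against 16.3%). Psmb9 was detected in 59 cells (32.4%, 25.7 to 39.7%) and Psmb6 in 85 (46.7%, 39.3 to 54.2%), and Psmb9 was lower in set 1 (44.8% against 55.2%) as in set 2 (18.6% against 37.2%).

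Shares of this kind depend on gene length and on capture as well as on transcript number, and no source used here says whether the values were scaled by length. The longest annotated transcripts were 1628 bases for Psmb8 and 899 for Psmb5, 1352 for Psmb9 and 798 for Psmb6, and 1311 for Psmb10 and 1160 for Psmb7. By its longest transcript, the immunoproteasome gene was thus the longer of each pair, also for Psmb9. The shortest coding transcripts had the other order for Psmb8 (358) and Psmb5 (622) and for Psmb9 (433) and Psmb6 (798). For Psmb10 (1311) and Psmb7 (1160) the order was the same. The part of length in these shares was not tested.

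**Figure D2:**
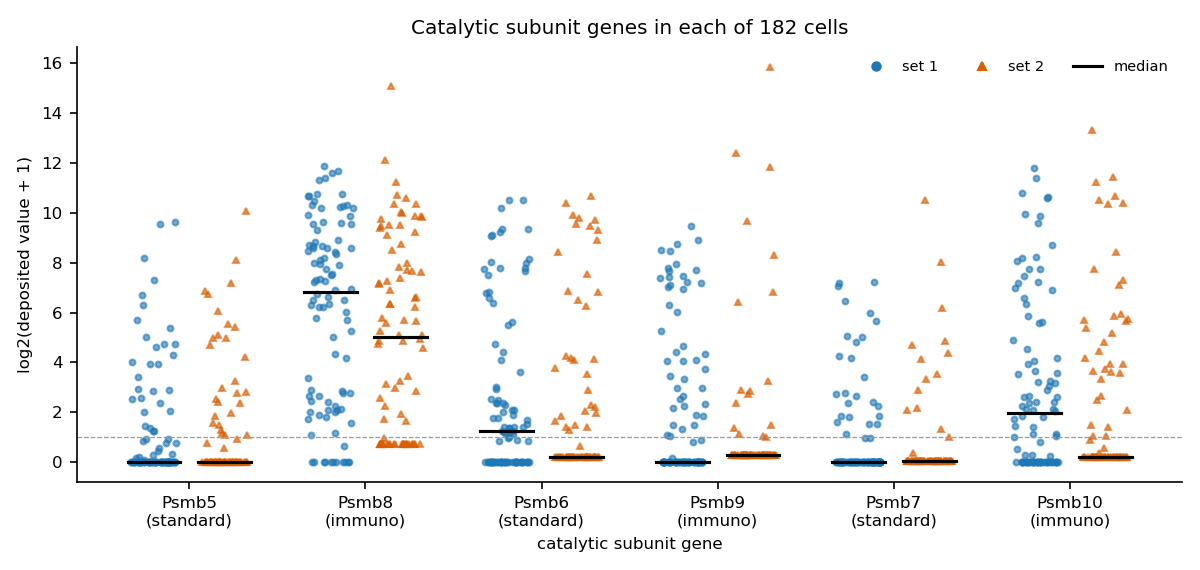
log2(deposited value + 1) of the 3 standard and 3 immunoproteasome catalytic genes in each of the 182 cells, 1 point per cell, with the detection threshold of 1 as a dashed line. Psmb8 lies above the threshold in 142 cells, and most cells of Psmb5, Psmb6, Psmb7 and Psmb9 lie below it.

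Single cells rarely showed the full set of either kind. All 3 immunoproteasome genes were detected in 25 cells, 2 in 78, 1 in 62 and none in 17, and 16 of those 17 cells belonged to set 2. All 3 standard genes were detected in 5 cells and none in 62. Psmb5 and Psmb8, which occupy the same place in the barrel, were detected together in 47 cells, where the shares in the sets multiplied together give 44.3 cells. Psmb8 alone was detected in 95 cells, Psmb5 alone in 10 and neither in 30. Their Spearman correlation (rho) across cells was -0.00 in set 1 and 0.16 in set 2. Psmb6 and Psmb9 were detected together in 37 cells (29.7 from the shares), with rho 0.27 and 0.17, and Psmb7 and Psmb10 in 25 cells (20.5 from the shares), with rho 0.19 and 0.06. For each of these pairs the cells with both genes outnumbered the product of the shares. That product allows for the set but not for depth. The rho with genes above floor was 0.23 and 0.51 for Psmb5, and 0.43 and 0.37 for Psmb8. It was 0.48 and 0.35 for Psmb6, 0.26 and 0.41 for Psmb9, 0.49 and 0.30 for Psmb7, and 0.07 and 0.15 for Psmb10. The part of depth in these counts was not tested.

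The highest values of the immunoproteasome genes came from single cells. The highest Psmb8 value of 35302 belonged to cell 153, the highest Psmb9 value of 59828 to cell 174 and the highest Psmb10 value of 10280 to cell 125, all in set 2. Cell 153 had Psmb9 at its floor of 0.224, and cell 174 had Psmb8 at 168. The cells with the highest value of each gene were thus different cells. Rank correlations limit the weight of such values.

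In the regulatory cap, the ATPases had a median share of 44.8% and the non-ATPase subunits of 36.0%. Psmc4, an ATPase of the ring, was detected in 154 cells (84.6%, interval 78.5 to 89.5%), with values from 0 through 9.64 to 5928, the highest share of any member. Psmd2, a large scaffold subunit, was detected in 118 cells (64.8%, 57.4 to 71.8%), with values from 0 through 2.57 to 2550. Both had higher shares in set 2 than in set 1, at 89.5% against 80.2% for Psmc4 and 70.9% against 59.4% for Psmd2, while most members went the other way. The ATPase gene Psmc3 was detected in 98 cells and Psmc5 in 62, the lowest of the 6. Psmd14, the deubiquitinase of the cap, was detected in 69 cells (37.9%), Psmd4, a ubiquitin receptor, in 77 (42.3%), and Shfm1, the smallest cap subunit (RefSeq symbol Sem1), in 82 (45.1%). Psmd3 was lowest with 24 cells (13.2%).

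Of the alternative caps, Psme1 and Psme2 form the PA28 ring that is induced by interferon gamma. Psme1 was detected in 109 cells (59.9%, 52.4 to 67.1%), with values from 0 through 3.54 to 7906, and its share was 79.2% in set 1 and 38.4% in set 2. Psme2 was detected in 40 cells (22.0%) and Psme2b, its intronless copy at chr11:48945345-48946410, in 99 (54.4%). All 40 cells with Psme2 also had Psme2b, where the shares give 22.1, and rho between them was 0.74 in set 1 and 0.64 in set 2, the highest of any pair. The transcripts of Psme2 and Psme2b were identical at 789 of 794 aligned bases (99.4%), so the counting may have split reads of 1 gene over both and their separate values are uncertain. Psme1 and Psme2 were detected together in 31 cells (25.1 from the shares), with rho 0.15 and 0.27. Psme3, the gene of the nuclear PA28 ring, was detected in 23 cells and Psme4, the gene of the cap PA200, in 39.

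The 8 assembly chaperones had a median share of 14.6%, the lowest of the roles with more than 1 member. Pomp, which guides the beta subunits into the barrel and is then degraded by it, was detected in 78 cells (42.9%, 35.6 to 50.4%), with values from 0 through 0.21 to 3315. Psmg2 was detected in 41 cells, and the other 6 chaperone genes in 14 to 27. Psmd5 was more often detected in set 2 (24.4%) than in set 1 (6.25%), as were 14 of the 52 members in all and 4 of the 8 assembly chaperones.

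A cell had a median of 17 detected members (range 2 to 33), with 20 (9 to 33) in set 1 and 15 (2 to 33) in set 2. The number followed depth: its rho with genes above floor was 0.74 in set 1 and 0.70 in set 2. Cell 128, with 2 members, also had the fewest genes above floor, 980. Of the 45 members detected in at least 10% of the cells of each set, 34 had a rho with genes above floor of at least 0.2 in both sets, against 15.1% of the 4638 genes so tested. Psmc4 went against this, with rho -0.10 in set 1 and -0.51 in set 2, and Psmd2 gave 0.17 and -0.02. Since depth moved with most members, the score relations below are also given as partial rank correlations given genes above floor.

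**Figure D3:**
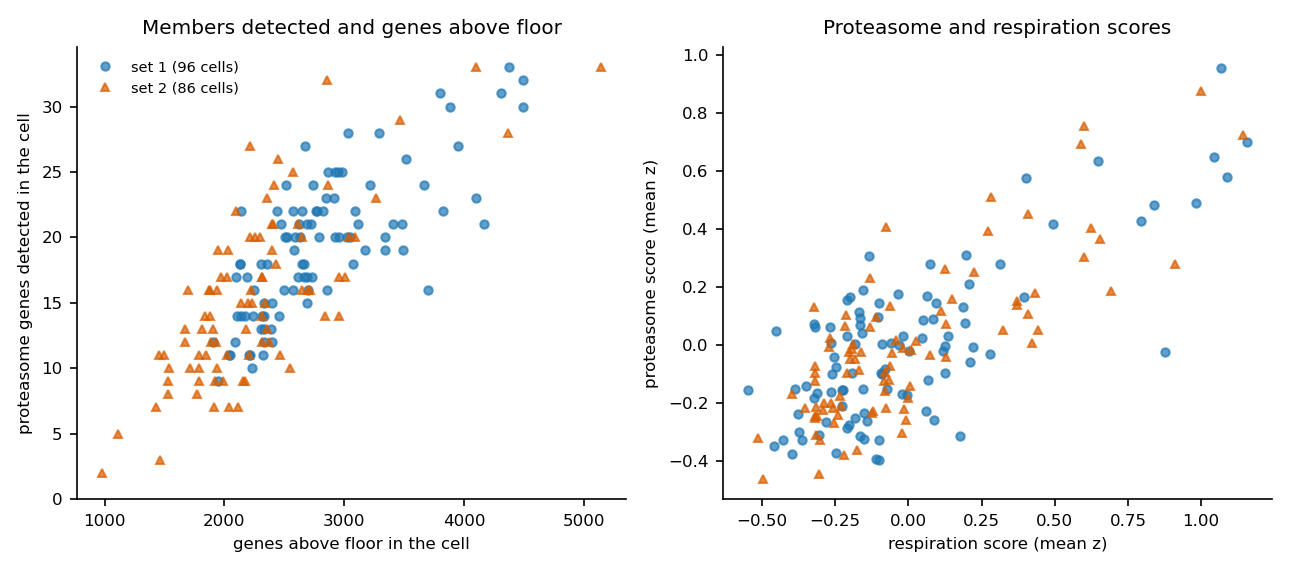
Each point is 1 cell, circles for set 1 and triangles for set 2. Left, the number of proteasome genes detected against genes above floor (rho 0.74 and 0.70); right, the proteasome score against the respiration score, both as mean z within set (rho 0.57 and 0.71).

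Proteasome genes varied together weakly. Over the 1081 pairs of the 47 members detected in at least 10% of cells, the mean rho was 0.10 (0.10 within set 1 and 0.12 within set 2), against 0.03 (0.01 and 0.02) over all genes at that level of detection. A pair was called where its rho was at least 0.2 in both sets. This held for 69 pairs (6.38%), against 0.691% of the pairs of all genes detected in at least 10% of cells. No pair of members was at or below -0.2 in both sets. The correlation was above 0 in both sets for 706 pairs. Given genes above floor, the mean was 0.04, with no value over all genes to set beside it. Among the 10 members detected in at least 50% of cells the mean without regard to depth was 0.05, against 0.01 over all genes at that level. There 1 of 45 pairs was called (2.22%), against 1.67% of all gene pairs at that level, so the share of called pairs was near the background. Respiration genes, a larger set of subunits of joint complexes, had a mean of 0.16.

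The 14 core genes had a mean rho of 0.14 in set 1 and 0.19 in set 2, and 15 of their 91 pairs were called (16.5%). In the regulatory cap 4 of 153 pairs were called (2.61%), with means of 0.09 and 0.08. The 5 alternative cap genes had means of 0.14 and 0.21 over 10 pairs, of which 1, the uncertain pair of Psme2 and Psme2b, was called. Psmb3 was in 11 called pairs, Pomp in 10 and Shfm1 in 9. Psma5 and Psmb3 gave rho 0.27 in set 1 and 0.60 in set 2, and were detected together in 17 cells where the shares give 8.35. Psma2 and Psma5, both of the alpha rings, gave 0.36 and 0.37. Pomp gave 0.36 and 0.32 with Psmb7, 0.33 and 0.45 with Psmb3 and 0.37 and 0.33 with Psmb6. Psmb8 and the ATPase gene Psmc3 gave 0.44 and 0.22. The 3 immunoproteasome genes had no called pair among themselves, with rho of -0.06 and 0.23 for Psmb8 and Psmb9, 0.02 and 0.11 for Psmb8 and Psmb10, and -0.08 and 0.03 for Psmb9 and Psmb10.

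**Figure D4:**
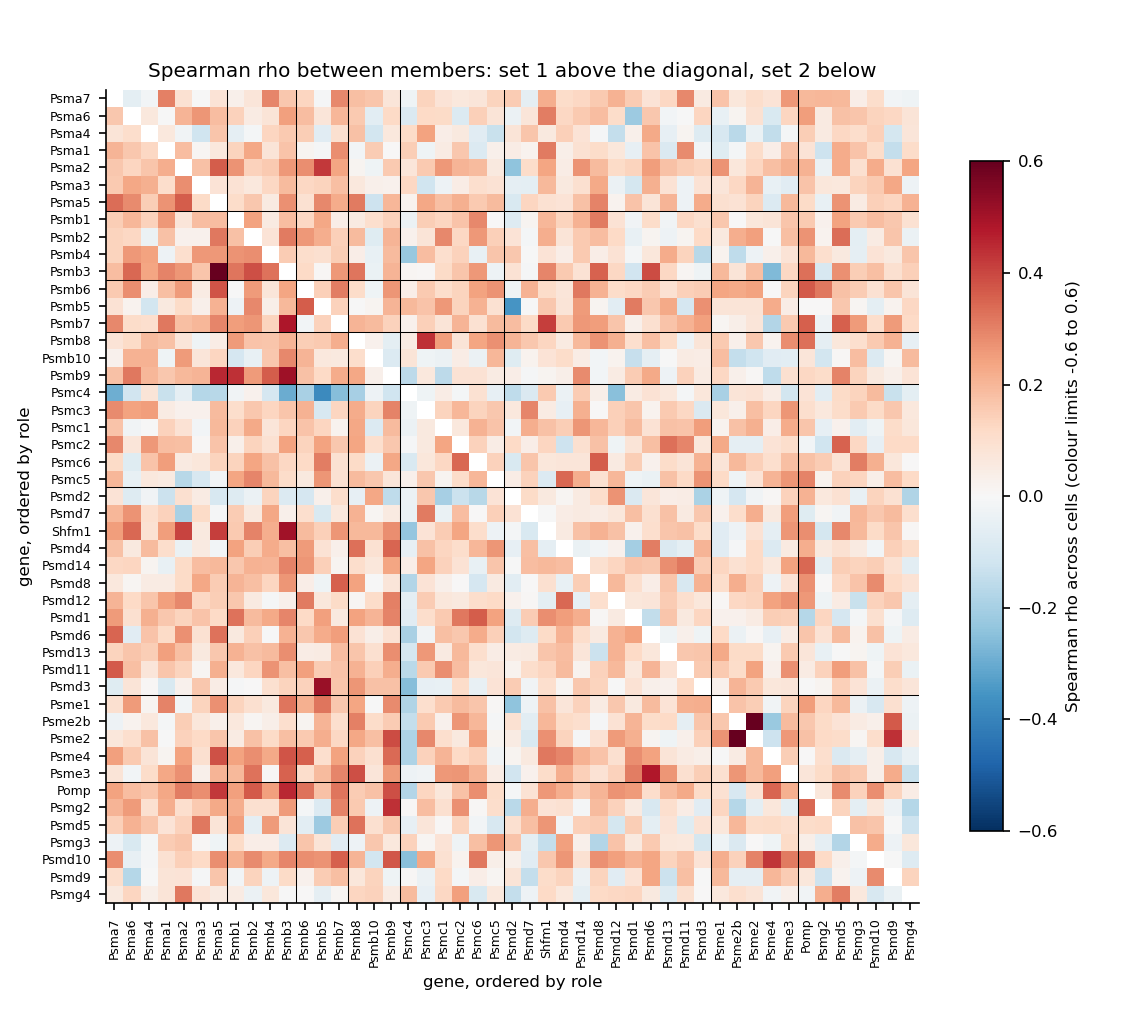
Spearman rho across cells between the 47 members detected in at least 10% of cells, ordered by role, with set 1 above the diagonal and set 2 below (colours end at -0.6 and 0.6). Psme2 with Psme2b is the strongest pair (0.74 and 0.64), and the 14 core genes average 0.14 in set 1 and 0.19 in set 2.

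Each member was also set against the score of all the others, a mean of z-scored log2 values within each set. Of 45 members, 21 reached 0.2 in both sets, against 10.4% of all genes tested, and none was at -0.2 or below, against 0.97%. Ranked by the smaller of both values, the highest were Pomp (0.39 in set 1, 0.40 in set 2), Psma2 (0.44, 0.33), Psmb3 (0.33, 0.59) and Psma5 (0.33, 0.43), and Psmb6 gave 0.42 and 0.31. Psmc4, the most often detected member, gave 0.07 and -0.31, and Psmd2 gave -0.01 and 0.02, and neither was in a called pair. Given genes above floor, Psmc4 gave 0.20 and -0.01, and Psmd2 -0.18 and 0.03. Of the immunoproteasome genes, Psmb8 gave 0.29 and 0.39, Psmb9 0.18 and 0.45, and Psmb10 0.02 and 0.25. Given genes above floor, 1 of 45 members, Psma2, still reached 0.2 in both sets (0.31 and 0.25), against 1.1% of all genes. At that point the share of members called was near the background. The member medians were then 0.08 and 0.16, against 0.01 and 0.03 for all genes.

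Taken by role, the scores of the core and of the regulatory cap had rho 0.32 in set 1 and 0.41 in set 2, and 0.13 given genes above floor. The non-ATPase cap genes gave 0.28 and 0.48 with the core (0.17 given genes above floor), and the ATPases 0.23 and 0.07 (-0.00). The assembly chaperones gave 0.29 and 0.32 with the core and 0.27 and 0.34 with the immunoproteasome genes, and 0.19 and 0.21 given genes above floor. The immunoproteasome genes gave 0.18 and 0.30 with the core, 0.17 and 0.24 with the standard catalytic genes, and 0.06 and 0.01 given genes above floor. With a joint score of Psme1 and Psme2, the immunoproteasome genes gave 0.19 and 0.26, and 0.12 given genes above floor.

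Respiration genes, which encode the subunits of the mitochondrial chain and of ATP synthase, had the highest rho with the proteasome of the lists set against it. The proteasome score and the score of 71 respiration genes had rho 0.64 over all cells, 0.57 in set 1 and 0.71 in set 2, and 0.39 given genes above floor. Of 45 members, 23 were called with the respiration score, against 12.9% of all genes, and the member medians were 0.24 and 0.29, against 0.07 and 0.11 for all genes. They were 5 alpha genes, 4 structural beta genes, the standard catalytic genes Psmb6 and Psmb7, the immunoproteasome genes Psmb8 and Psmb9, 2 ATPase and 4 non-ATPase cap genes, 3 alternative cap genes and Pomp. Psmb6 gave 0.48 and 0.44, Psmb7 0.50 and 0.36, Pomp 0.43 and 0.50, Psmb3 0.38 and 0.52 and Shfm1 0.35 and 0.56. Given genes above floor, 5 members stayed called (Psma1, Psmb1, Psmb6, Psmb7 and Shfm1), which is 11.1% of 45 against 3.41% of all genes. Psmc4 gave -0.11 and -0.27 with the respiration score without regard to depth, and -0.06 and 0.05 given genes above floor.

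From the side of the respiration genes, 41 of the 70 tested were called with the proteasome score, against 10.4% of all genes, and none in the opposite direction, against 0.97%. Of these, 4 stayed called given genes above floor (Ndufa1, Ndufa13, Ndufb8 and Cox7b), against 1.1% of all genes. Ndufb8 of complex I gave 0.55 and 0.46, Cox7b of complex IV 0.47 and 0.45, Ndufa1 0.44 and 0.46 and Atp5e of ATP synthase 0.43 and 0.53. The core score alone gave rho 0.57 and 0.62 with respiration (0.42 given genes above floor), the regulatory cap 0.40 and 0.50 (0.14) and the immunoproteasome 0.31 and 0.47 (0.20). The chaperonin, the ring that folds actin and tubulin, was second among the lists, with rho 0.38 and 0.48 and 0.19 given genes above floor. With its score 17 members were called, against 6.38% of all genes, among them Psmb2 (0.36, 0.34), Pomp (0.35, 0.31) and Psmc5 (0.28, 0.24). Given genes above floor, Psmb2 stayed called (0.28, 0.21), against 0.539% of all genes.

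**Figure D5:**
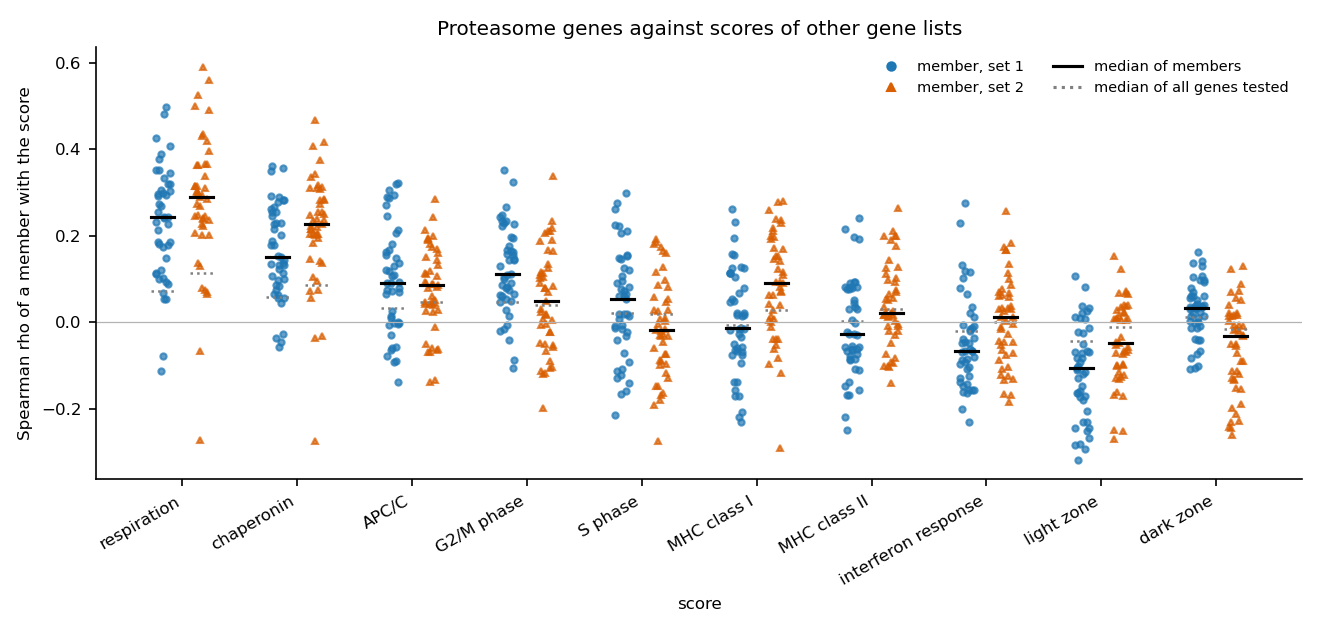
Spearman rho of each tested proteasome gene with the scores of other gene lists, 1 point per gene, with set 1 as circles and set 2 as triangles. The points for respiration and chaperonin lie mostly above 0 (medians 0.24 and 0.29, and 0.15 and 0.23), and those for S phase and the MHC classes scatter around 0.

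Division genes were not followed in the same way. With the S phase score (41 genes of DNA replication) the proteasome score had rho 0.10 in set 1 and -0.16 in set 2, and no member was called upward, against 3.08% of all genes, nor downward, against 1.27%. With the G2/M score (55 mitosis genes) it had 0.21 and 0.01, and the cap subunit gene Psmd11 was the only member called (0.23 and 0.34), which is 2.22% of members against 4.27% of all genes. Given genes above floor, the scores gave -0.17 for S phase and -0.13 for G2/M. Psmc4 was then called with the G2/M score (0.29 and 0.29, 1 of 45 members against 2.76% of all genes), and no member was called downward with it, against 1.19%. With the S phase score no member was then called upward, against 2.82% of all genes, and Psmb10 was called downward (-0.23 and -0.22, against 1.92%). These counts of members lay near or below the background.

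Some single mitosis genes reached the call threshold, at a share not far above that of all genes. Of 52 G2/M genes tested, 8 were called with the proteasome score, against 10.4% of all genes, and given genes above floor 1, Cks1b, stayed called (0.21 and 0.28), against 1.1%. Without regard to depth, Cks1b, which helps the SCF ligase bind the inhibitor p27, gave 0.42 and 0.43. The cyclin gene Ccnb1 gave 0.32 and 0.38, Birc5 0.26 and 0.31 and Ccnb2 0.26 and 0.25. Given genes above floor, these became 0.09 and 0.25 for Ccnb1, 0.07 and 0.21 for Birc5 and 0.09 and 0.15 for Ccnb2. Of the replication genes, 1 of 38, Tipin, was called (0.23 and 0.29). The anaphase-promoting complex, the ligase that marks cyclins for the proteasome, had a score with rho 0.31 and 0.22 (0.08 given genes above floor). Of its 10 genes tested, 1, Anapc13, was called (0.36 and 0.51). With the score of the complex, Psmb6 was the 1 member called, against 0.798% of all genes, and none was called given genes above floor, against 0.129%.

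Peptide presentation genes showed little joint variation with the proteasome. With the MHC class I score (14 genes) the proteasome score had rho 0.00 in set 1 and 0.26 in set 2 (0.08 given genes above floor), and no member was called upward, against 1.27% of all genes, or downward, against 0.668%. Given genes above floor, no member was called either, against 0.69% upward and 0.776% downward. The immunoproteasome score gave 0.10 and 0.08 with it (0.06). By detection, B2m, the light chain of class I, was found in 180 cells, H2-D1 in 167 and H2-K1 in 165, while Tap1 was found in 87. Psmb9 and Tap1, which share the interval shown above, were detected together in 30 cells, where the shares give 30.9, with rho -0.04 and 0.14. B2m gave 0.01 and 0.27 with Psmb8, 0.07 and 0.29 with Psmb9 and 0.12 and 0.26 with Psmb10, so these were higher in set 2 than in set 1 for each gene. That difference between the sets was not tested. None of the 13 class I genes tested was called with the proteasome score, where 10.4% of all genes were called upward and 0.97% downward. With so few genes, that count cannot be told from the background.

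Psmb9 was the 1 member called with the MHC class II score (0.24 and 0.26, against 0.582% of all genes), and it was also called given genes above floor (0.25 and 0.25). Psmb9 lies in the MHC region on chromosome 17 with the class II genes. Single class II genes gave rho with Psmb9 of 0.27 and 0.32 for H2-Ab1, 0.30 and 0.29 for H2-Eb1, 0.28 and 0.16 for H2-Aa and 0.17 and 0.38 for H2-DMb2. H2-DMb1 gave -0.20 and -0.16, H2-Ob -0.08 and -0.24, and Ciita -0.12 and 0.01. The remaining class II genes gave 0.13 and 0.30 (Cd74), -0.00 and 0.26 (H2-DMa) and 0.10 and 0.12 (H2-Oa). Only H2-Ab1 and H2-Eb1 reached 0.2 in both sets. Psmb8, also in the region, gave -0.07 and 0.20 with the class II score, and Psmb10 -0.06 and 0.02. The whole immunoproteasome score gave 0.12 and 0.30 (0.21 given genes above floor), and the proteasome score -0.06 and 0.01 (-0.06).

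Of 31 interferon response genes in the table, 9 were detected in at least 10% of cells, and their median share of 4.95% was close to the 3.85% over all genes. Among them were Irf8 in 125 cells and Irf1 in 59, while Isg15 was detected in 1 cell. Their score gave rho 0.04 and -0.02 with the immunoproteasome score, and no member was called with it, against 0.151% of all genes. Psmb8 gave -0.09 and 0.09 with Irf1. Of the 8 interferon response genes tested, 1, Irf7, was called downward with the proteasome score (-0.29 and -0.28), against 0.97% of all genes. None was called upward, against 10.4%. Given genes above floor, Irf7 gave -0.23 and -0.17 and was no longer called. In all, 4 members were called with the immunoproteasome score, against 2.76% of all genes: Pomp (0.30 and 0.27), Psmb3 (0.27 and 0.35), Psmc3 (0.28 and 0.25) and Psme1 (0.31 and 0.23). None of the 45 was called given genes above floor, against 0.172% of all genes.

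Of the genes that serve the proteasome, 4 of 19 tested were called upward with its score, against 10.4% of all genes, and 1 downward, against 0.97%. None of the 19 was called in either direction given genes above floor, against 1.1% and 0.151% of all genes. Ubb, a ubiquitin gene detected in 176 cells, gave 0.31 and 0.35, Uchl5, a deubiquitinase of the cap, 0.34 and 0.34, Rps27a, a ubiquitin fusion gene, 0.29 and 0.30, and Txnl1, a cap-bound thioredoxin, 0.37 and 0.21. Vcp, the segregase that extracts ubiquitin-tagged proteins, was called downward (-0.27 and -0.24) and was detected in 114 cells. No member was called with the score of this list, against 0.108% of all genes upward and 0.0647% downward.

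With the light zone score the proteasome score gave rho -0.18 in set 1 and -0.23 in set 2, and -0.03 given genes above floor. Pomp (-0.28 and -0.25) and Psmd12 (-0.24 and -0.27) were called downward, against 0.927% of all genes, and neither was called given genes above floor. With the dark zone score the values were 0.03 and -0.08 (0.03 given genes above floor) and no member was called, against 0.259% of all genes. With the proteasome score, 1 of 17 light zone genes was called upward (Bcl2a1b, 0.26 and 0.31) and 1 downward (Cd22, -0.26 and -0.42). Of 14 dark zone genes, Ccnb1 (above) was called upward and Mybl1 downward (-0.21 and -0.39), where 10.4% of all genes were called upward and 0.97% downward. None of these zone genes was called given genes above floor. Of the 9 germinal centre B cell markers, 2 were called downward, among them Bcl6 (-0.20 and -0.25), against 0.97% of all genes. Upward, 0 were called, against 10.4%. Of the same 9, Cd79b was called upward given genes above floor (0.25 and 0.28), against 1.1% of all genes, and none downward, against 0.151%. Bcl6 then gave -0.06 and -0.18.

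Outside all lists, 4324 genes were ranked by the smaller of their within-set values with the proteasome score. Among the 10 highest were the ribosomal protein genes Rps9 (0.50 and 0.42), Rpl32 (0.47 and 0.41) and Rpl41 (0.42 and 0.39). With them were the peroxidase gene Prdx1 (0.41 and 0.42), Hint1 (0.41 and 0.58), the mitochondrial electron carrier gene Etfa (0.40 and 0.40), the ubiquitin-conjugating enzyme gene Ube2a (0.39 and 0.49) and the tubulin regulator gene Stmn1 (0.39 and 0.43). At the other end stood Son (-0.41 and -0.42) and the nuclear RNA Malat1 (-0.48 and -0.34), with Sfi1 (-0.47 and -0.36), Ash1l (-0.43 and -0.33), Myh9 (-0.38 and -0.38), Prrc2c, Lars2, Pld4, 2900060B14Rik and Hmha1. Genes above floor had a rho of 0.32 with Rps9 and of -0.42 with Son. The values given genes above floor were 0.26 and 0.34 for Rps9, 0.28 and 0.39 for Hint1, -0.26 and -0.25 for Malat1, -0.14 and -0.24 for Son and 0.04 and 0.19 for Stmn1.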

How the data were processed

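The 182 cells were measured by full-length single-cell RNA sequencing and deposited as 1 table of normalized, non-log signal values. Per the submitters' processing notes, TopHat2 2.0, Cufflinks 2.2 and Cuffdiff were used with mm10; how the deposited signal was normalized is not given in the sources used here, and neither are read depths. Of 17035 rows, 17034 symbols were kept, and 20 had been turned into dates. No pair of columns was identical.

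From these values, detection was set at 1. Scores were the mean over a list's genes, detected in at least 10% of cells, of the z-score within set of log2(value + 1). A gene was called where its Spearman rho with a score was at least 0.2, or at most -0.2, in both sets, among 4638 genes detected in at least 10% of the cells of each set. A member was left out of any score it was set against. Relations given genes above floor are partial rank correlations within set. The scripts were tested on simulated data. Python 3.11.15, NumPy 2.4.6, SciPy 1.17.1 and pandas 2.3.3 were used. The members, lists and settings were chosen with earlier results of these data known. All members could be named; of other lists, the 5 genes with the highest share and the 5 with the highest rho; outside all lists, the 10 highest and 10 lowest. Other list genes named in the text were chosen after their values were seen. Alternatives were another pseudocount, no filter, other detection thresholds, z-scores over all cells, Pearson's r, each set alone, depth and cells left out. Some genes that these rules would name are not reported here.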

Additional observations from a re-analysis of the deposited data

How the results depend on the processing

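The relation of the proteasome and respiration scores stayed positive under every alternative run, from 0.37 when only members that reached 50% of cells were scored, and 0.39 given genes above floor, to 0.77 by Pearson's r. The S phase relation was -0.01 over all cells, -0.17 given genes above floor and -0.16 in set 2 alone. The G2/M relation was 0.11, and -0.13 given genes above floor. The relation of the immunoproteasome and standard catalytic scores was 0.19, and 0.00512 given genes above floor. The cause of these shifts was not tested. The number of members detected in at least 50% of cells was 10, and became 3 at a value of 5 or more (against 1.6% of all genes), 16 in set 1 alone (4.83%) and 5 in set 2 alone (3.21%). Over the alternatives run, the mean rho between members ranged from 0.04 given genes above floor to 0.12 in set 2 alone, and the relation of the proteasome and MHC class I scores from 0.00 in set 1 alone to 0.26 in set 2 alone. That of the immunoproteasome and MHC class I scores ranged from 0.06 to 0.14. The score of the standard catalytic genes could not be limited to genes detected in at least 50% of cells, since none reached that share. Leaving out cell 122, whose summed value stood far above the others, was chosen after seeing the data. So were leaving out the cell with the fewest genes detected, the mean of the within-set values, and leaving out Psme2b and Psmc3ip. With none of these did a rho change its sign or leave its 95% interval, or a count change by over 1.5 times. That interval was computed as if cells were independent and serves as a yardstick of size only. It does not measure the spread of the mean rho over pairs. No paired analysis was possible because all cells form 1 group. Without replicates, the values describe these libraries, and the floors hide differences among genes of low value.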
